A study of Mus musculus with 6 samples.

Results

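Psmb8, Psmb9, Psmb10, Psme1, Psme2, Tap1, Tap2, Tapbp, B2m and Nlrc5 are genes of the immunoproteasome and of peptide loading onto class I molecules of the major histocompatibility complex (MHC). They were taken by symbol as 10 of the 20443 genes in RNA-seq tables of mouse medullary thymic epithelial cells (mTECs). The choice used no cut on values, but it was made with earlier results of these data known. All 10 were present, on 13 rows of each table, and all passed the filter on low values. The cells were sorted by flow cytometry from C57BL/6 mice of 4 weeks. The 3 control libraries (Con_253, Con_261 and Con_264) came from Jmjd3fl/fl mice, in which the gene is flanked by loxP sites and intact. The 3 Jmjd3-deficient libraries (cKO_262, cKO_263 and cKO_265) came from Jmjd3fl/fl-Foxn1-cre mice. Jmjd3, with the gene symbol Kdm6b, is an enzyme that removes methyl groups from lysine 27 of histone H3. Foxn1 drives Cre in thymic epithelium, cortical as well as medullary, so the deletion is not limited to the sorted cells. The controls carry no Cre, so loss of Jmjd3 and presence of the Cre construct cannot be told apart. The labels do not say that each library is a separate mouse. If they are not, the p-values measure technical spread. Values are given below in the order in which the libraries are named here.

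Class I molecules show short peptides from a cell's own proteins to CD8 T cells. Proteasomes cut those peptides. In the immunoproteasome the catalytic subunits encoded by Psmb8, Psmb9 and Psmb10 take the places of the standard subunits Psmb5, Psmb6 and Psmb7. Psme1 and Psme2 encode the alpha and beta chains of PA28, a cap that opens the proteasome and alters the peptides it releases. Tap1 and Tap2 form the transporter that moves peptides into the endoplasmic reticulum, and tapasin (Tapbp) holds the empty class I molecule beside it. Beta-2-microglobulin (B2m) is the light chain of every classical class I molecule, and Nlrc5 is a transactivator of class I genes. In the medulla such peptides, including those of tissue-restricted proteins, are shown to developing T cells, and self-reactive ones are removed.

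All 10 genes are protein coding in GENCODE M21, and positions below are from RefSeq on mm10 (GRCm38), the build that the submitters' processing notes name. Psmb9 (chromosome 17, 34182030 to 34187330, minus strand), Tap1 (34187556 to 34197225, plus), Psmb8 (34198195 to 34201454, plus) and Tap2 (34204479 to 34216321, plus) lie within 34.3 kb of the MHC. Tapbp lies on the same chromosome at 33919478 to 33929290. Psme1 (chromosome 14, 55578494 to 55581527) and Psme2 (55587440 to 55591101) are 5.9 kb apart. Psmb10 (105935728 to 105938392) and Nlrc5 (94434335 to 94527272) are on chromosome 8, and B2m (122147687 to 122153082) is on chromosome 2.

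Psmb9 and Tap1 are read in opposite directions from starts that are 225 bases apart. The stretch between them, chr17:34187331-34187555 on the plus strand, is shown because a pair of the genes described here shares it. The B2m promoter, the 250 bases before its start at chr2:122147437-122147686, is shown as the one that held the most motifs searched. Both are from RefSeq on GRCm38.p6, 5′ to 3′, with motif matches in capitals.
Psmb9 to Tap1: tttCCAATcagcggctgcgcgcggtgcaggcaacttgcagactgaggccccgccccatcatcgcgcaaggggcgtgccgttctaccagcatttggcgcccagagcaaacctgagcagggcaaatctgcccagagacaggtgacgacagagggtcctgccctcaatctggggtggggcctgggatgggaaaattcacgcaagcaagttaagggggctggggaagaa
B2m: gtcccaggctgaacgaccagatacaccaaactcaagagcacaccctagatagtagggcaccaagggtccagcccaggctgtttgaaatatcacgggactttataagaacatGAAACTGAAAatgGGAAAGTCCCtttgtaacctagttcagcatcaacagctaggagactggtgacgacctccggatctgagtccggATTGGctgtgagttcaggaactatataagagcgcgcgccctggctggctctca

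The capitals between Psmb9 and Tap1 mark 1 CCAAT box, the letters that the factor NF-Y reads. In the B2m promoter they mark, from left to right, the core of an interferon-stimulated response element (ISRE), a kappa-B site and a CCAAT box. The kappa-B and CCAAT matches there are both on the opposite strand. The motifs were searched on both strands as GAAANNGAAA (ISRE core), TTCNNNGAA (the gamma-activated site, GAS), CCAAT and the kappa-B consensus, and the matches shown do not overlap. Of 32851 RefSeq promoter windows of 250 bases, 2.98% held the ISRE core, 7.02% the GAS letters, 33.8% CCAAT and 7.25% the kappa-B consensus. RefSeq promoters matched 8 of the 10 genes by symbol. The ISRE core and kappa-B consensus were found in B2m, the GAS letters in Psmb8, and CCAAT in B2m, Psmb9, Tap1 and Tapbp, Psmb9 and Tap1 by the same match. A match describes letters and is not a measured site.

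The authors deposited FPKM (fragments counted per kilobase of transcript and relative to all mapped fragments), which allow genes to be compared per length. The tables hold no counts, so depth is unknown. The summed FPKM of a library was 461152 to 543156 in the controls and 582835 to 641060 in the deficient libraries. The 100 most abundant genes held 31.6% to 33.6% of it in the controls and 36.2% to 40.9% in the deficient libraries, and the groups do not overlap in either measure. On the first principal component (42.8% of the variance) cKO_265 stood at 53.0 and the other 5 libraries between -22.7 and 7.42. The 4 Y-linked genes Ddx3y, Eif2s3y, Uty and Kdm5d summed to 12.6 FPKM in Con_253 and to at most 0.110 FPKM elsewhere. Kdm6b itself had 18.1, 17.1 and 9.998 FPKM in control libraries and 11.1, 11.6 and 8.67 FPKM in the deficient libraries (log2 fold change -0.45, SE 0.23, adjusted p = 0.418). The tables give 1 value for the whole gene and none for the deleted part, so it does not check the labels.

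B2m was the most abundant of the 10 genes in every library, ranking between 14 and 43 among all genes. By mean FPKM over the 6 libraries it was followed by Psme2 (407), Tapbp (373), Psmb10 (297), Psme1 (261.1), Psmb8 (171), Psmb9 (161), Tap1 (94.4), Tap2 (66.9) and Nlrc5 (39.4), against 2178 for B2m. Most neighbours in this order kept it in all 6 libraries. The exceptions were Psme2 above Tapbp (2 of 6 libraries), Psmb10 above Psme1 (4 of 6) and Psmb8 above Psmb9 (4 of 6). Psme2 passed Tapbp in cKO_263 and cKO_265 only.

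**Figure D1:**
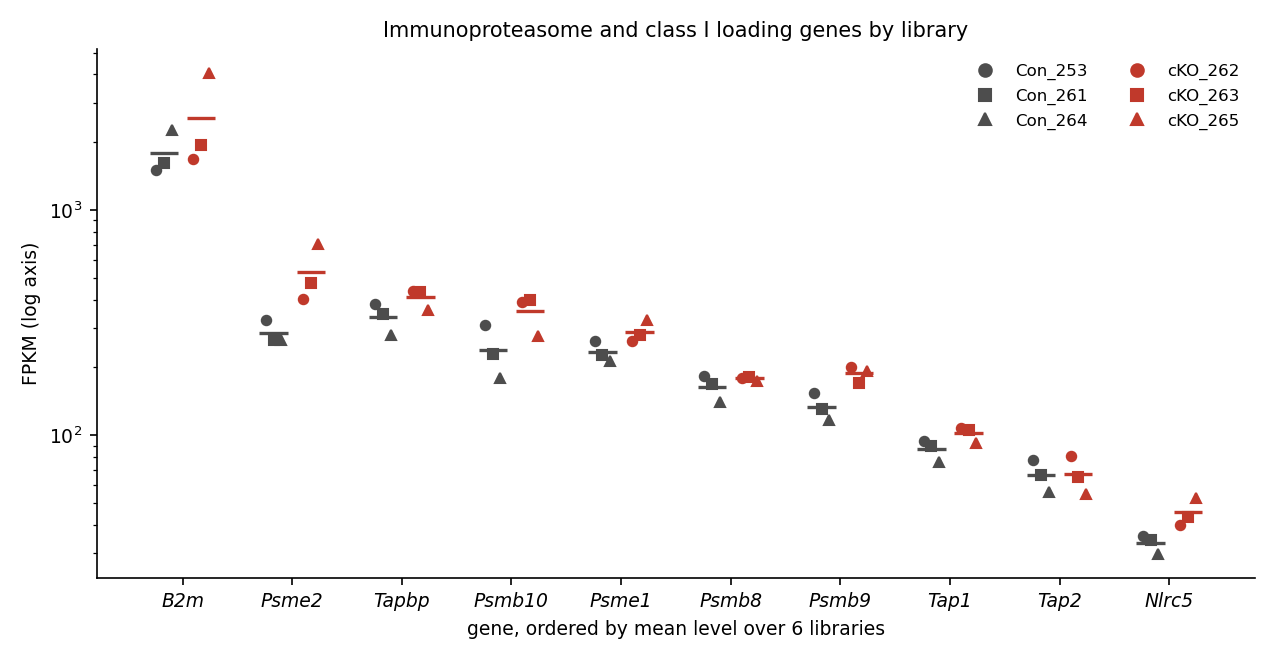
FPKM (log axis) of the 10 genes in each library; points are libraries, and a horizontal bar marks the mean of the 3 libraries of a group. The groups do not overlap for Psmb9, Psme2 and Nlrc5, and the Tap2 means coincide at 66.7 and 67.1 FPKM.

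The comparison of Jmjd3-deficient with control mTECs asks how expression depends on Jmjd3. None of the 10 genes passed limma's test at an adjusted p of 0.05. All 10 had a positive log2 fold change, from 0.00 for Tap2 to 0.86 for Psme2, with a median of 0.36 against -0.04 over all 15720 tested genes. Fold changes are on the scale of log2(FPKM + 1), deficient minus control. Psmb9, Psme2 and Nlrc5 were higher in each deficient library than in any control.

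Abundant genes in general had higher FPKM in the deficient libraries, and these 10 genes are abundant. Among the 2128 genes at least as abundant as Nlrc5 (a mean of 39.4 FPKM), the median log2 fold change was 0.18 and 70.4% were positive, against 45.3% of all tested genes. The median was larger in more abundant genes, from -0.11 for genes of 1 to 3 FPKM to 0.10 at 30 to 100, 0.23 at 100 to 300, 0.36 at 300 to 1000 and 0.50 above 1000 FPKM. Over all tested genes 0.0763% passed the adjusted threshold. Values were higher in the deficient group without overlap for 9.59% of tested genes and 31.0% of the 2128 abundant ones, and for 3 of the 10 genes. They were lower without overlap for 11.9% and 5.83%, and for 0 of the 10. At an unadjusted p under 0.05, 6.81% of tested genes and 25.0% of the abundant ones were higher and 7.82% and 4.46% lower, and of the 10 genes Psmb9, Psmb10, Psme2 and Nlrc5 were higher and 0 lower. The share of the 10 genes without overlap thus lies near that of genes of like abundance. After quantile normalization, which gives every library the same distribution, the median of the 10 was 0.03 with 6 positive, and that of the abundant genes -0.00. With limma's arrayWeights, which gives discordant libraries less weight, 19.2% of all tested genes passed, and Psmb9, Psmb10, Psme2 and Nlrc5 with them. The share of the abundant genes that passed in this fit was not computed.

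**Figure D2:**
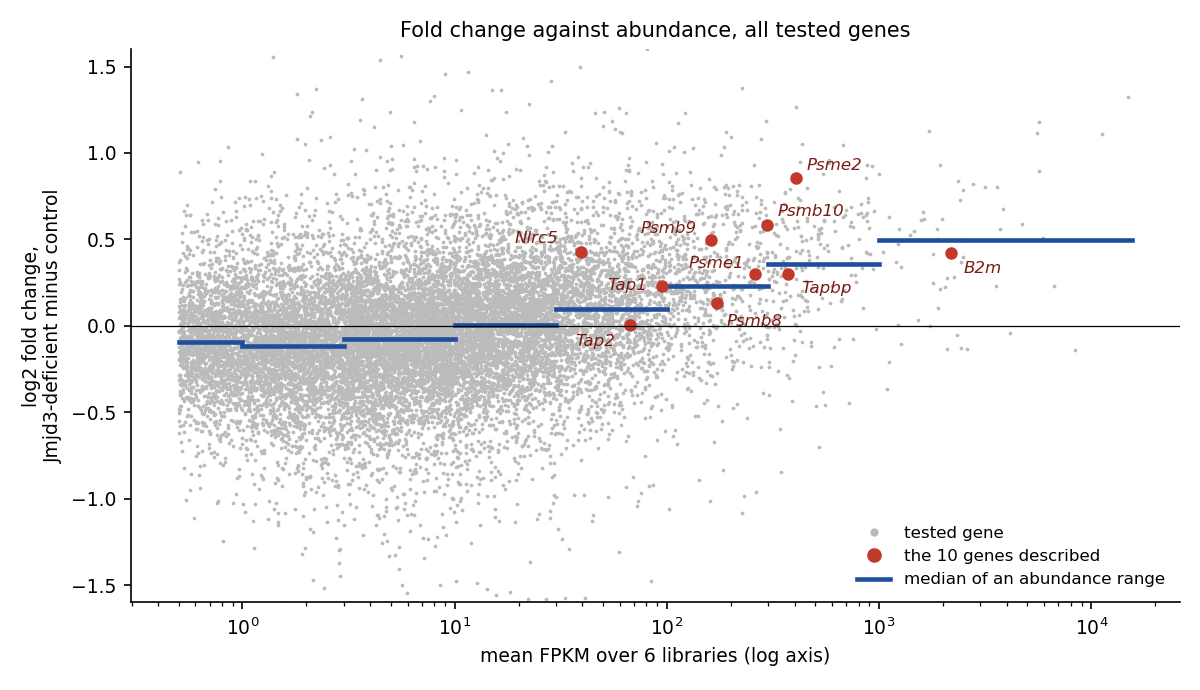
Log2 fold change (deficient minus control) against mean FPKM over 6 libraries (log axis); grey points are the tested genes (26 lie outside the drawn range), red points the 10 genes, and blue lines the median of each abundance range. The blue medians go from -0.09 at the low end to 0.50 at the high end, and the red points lie from 0.00 (Tap2) to 0.86 (Psme2).

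Of the catalytic subunits, Psmb9 (beta1i, which leaves few peptides with acidic ends) had 154, 131 and 117 FPKM in control libraries and 201, 171 and 194 FPKM in the deficient libraries. Every deficient library was above every control. The means were 134 ± 18.9 and 189 ± 15.6 FPKM (SD, n = 3 each), a log2 fold change of 0.50 (SE 0.15, 95% interval 0.16 to 0.84, limma adjusted p = 0.202), and 0.29 after quantile normalization. Psmb10 (beta2i) had 308, 229.9 and 179.7 FPKM against 393, 399 and 276 FPKM. The groups overlapped, since Con_253 lay above cKO_265. Its log2 fold change was 0.59 (SE 0.23, 95% interval 0.06 to 1.11, limma adjusted p = 0.288), and 0.30 after quantile normalization. Psmb8 (beta5i, with chymotrypsin-like activity) had 183, 168 and 140.3 FPKM against 180.4, 181 and 175 FPKM. The deficient libraries lay within the range of the controls. Its log2 fold change was 0.13 (SE 0.14, 95% interval -0.19 to 0.46, limma adjusted p = 0.714). It was -0.10 after quantile normalization, 0.0254 without Con_264 and 0.22 without Con_253.

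For the PA28 chains, Psme2 (beta) had 326, 264.04 and 264.5 FPKM in control libraries and 405, 473 and 709 FPKM in the deficient libraries. The lowest deficient library exceeded the highest control, and cKO_265 was the highest of all. The means were 285 ± 35.7 and 529 ± 159.9 FPKM (SD, n = 3 each), a log2 fold change of 0.86 (SE 0.22, 95% interval 0.36 to 1.35, limma adjusted p = 0.157). It was 0.62 without cKO_265 and 0.55 after quantile normalization. Its partner Psme1 (alpha) had 262.4, 227 and 213 FPKM against 261.7, 278 and 325 FPKM. The groups met at Con_253 and cKO_262. Its log2 fold change was 0.30 (SE 0.15, 95% interval -0.04 to 0.64, limma adjusted p = 0.400), and 0.01 after quantile normalization. Psme2 has a close copy, Psme2b, and how the authors treated reads shared between them is not given in the sources used here, so its value is uncertain.

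Of the transporter chains, Tap1 had 94.7, 89.5 and 76.3 FPKM in control libraries and 108, 106 and 92.2 FPKM in the deficient libraries. Con_253 lay above cKO_265, so the groups overlapped. Its log2 fold change was 0.23 (SE 0.14, 95% interval -0.09 to 0.56, limma adjusted p = 0.496). It was 0.0613 after quantile normalization and 0.14 without Con_264. Tap2 had 77.3, 66.5 and 56.2 FPKM against 80.9, 65.6 and 54.7 FPKM. Both groups covered nearly the same range. Its log2 fold change was 0.00 (SE 0.19, 95% interval -0.42 to 0.43, limma adjusted p = 0.997), and its sign turned after quantile normalization (-0.12), without Con_264 (-0.11) and without cKO_262 (-0.14). Tapbp, the tapasin gene, had 381, 346 and 278 FPKM against 437, 435 and 362 FPKM. Only cKO_265 lay within the control range. Its log2 fold change was 0.30 (SE 0.16, 95% interval -0.08 to 0.68, limma adjusted p = 0.444). It was -0.0028 after quantile normalization and 0.17 without Con_264.

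Counting was not stated to use strand. By GENCODE M21, exons of Psmb9 and Tap1 overlap on opposite strands over 212 bases. The RefSeq spans of this pair do not overlap, nor do the spans of their deposited rows. GENCODE exons also overlap for Psmb8 with Gm20496 (259 bases), Tap2 with Gm15821 and Gm20496 (up to 165), Tapbp with Gm19412 and Zbtb22 (up to 306), Nlrc5 with 9330175E14Rik (78) and Psme1 with Emc9 (14). If strand was not used and the authors' annotation holds these overlaps, reads from these stretches cannot be assigned to 1 gene. Zbtb22 lies on the same strand as Tapbp, so there strand would not separate them. Some deposited rows also differ in span from RefSeq. The B2m row runs from 122120108 to 122186189, the Nlrc5 row starts at 94472763, the Psme1 row ends at 55585254 and the Psmb9 row starts at 34182099. What these spans mean for the values was not tested.

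B2m had 1509.7, 1621 and 2255 FPKM in control libraries and 1691, 1945 and 4047 FPKM in the deficient libraries. The high value of cKO_265 was far from the other deficient libraries, which lay within the control range. The means were 1795 ± 402 and 2561 ± 1293 FPKM (SD, n = 3 each), a log2 fold change of 0.42 (SE 0.33, 95% interval -0.32 to 1.17, limma adjusted p = 0.591). Without cKO_265 it was 0.04, and without both cKO_265 and Con_253 it was -0.08, as it was -0.06 after quantile normalization.

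Nlrc5, which acts on the promoters of class I genes with the RFX and NF-Y factors, was the least abundant of the 10. It had 35.8, 34.4 and 29.8 FPKM in control libraries and 40.1, 43.3 and 52.8 FPKM in the deficient libraries. Every deficient library was above every control. The means were 33.3 ± 3.18 and 45.4 ± 6.60 FPKM (SD, n = 3 each), a log2 fold change of 0.43 (SE 0.16, 95% interval 0.08 to 0.78, limma adjusted p = 0.254), and 0.32 without cKO_265.

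Read library by library, the median of the 10 genes on the log2 scale, relative to the control mean, was 0.18, -0.01 and -0.18 in the controls and 0.30, 0.33 and 0.36 in the deficient libraries. Psmb10 was highest relative to the control mean in cKO_262 (0.75) and cKO_263 (0.77), and Psme2 in cKO_265 (1.32). The number of the 10 genes above the control mean was 9 in Con_253, 5 in Con_261 and 1 in Con_264, and 9 in each deficient library, so Con_253 did not differ from the deficient libraries in this count. The gene below was B2m in Con_253 (-0.23) and cKO_262 (-0.06), and Tap2 in cKO_263 (-0.01) and cKO_265 (-0.27).

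Ratios of 2 genes within a library do not depend on a single scaling factor per library, and 8 were tested. They can change where scaling depends on abundance, and they were not refitted after quantile normalization. With 3 libraries against 3, the exact permutation test (2-sided) cannot give a p below 0.1. Psme1 relative to Psme2 was 0.805, 0.859 and 0.805 in the controls and 0.647, 0.587 and 0.459 in the deficient libraries. The ratio of the PA28 messages thus lay further toward the beta chain in every deficient library, by -0.56 on the log2 scale (exact permutation p = 0.1, 0.4 adjusted over the 8 ratios). It rests on the Psme2 value, which is uncertain because of Psme2b. Psmb8 relative to Psmb5, the subunit whose place it takes, was 2.61, 2.93 and 2.91 in the controls and 2.59, 2.51 and 2.31 in the deficient libraries. This ratio was lower without overlap, although narrowly, by -0.19 on the log2 scale (exact permutation p = 0.1, adjusted 0.4).

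In the other 6 ratios the groups overlapped. Psmb9 relative to Psmb6 was 2.06, 2.19 and 2.11 against 2.03, 2.42 and 2.34 (log2 difference 0.09, exact permutation p = 0.4, adjusted 0.533). Psmb10 relative to Psmb7 was 0.600, 0.539 and 0.396 against 0.638, 0.522 and 0.311 (-0.10, exact permutation p = 0.8, adjusted 0.8). In every library the FPKM of Psmb8 and Psmb9 thus exceeded those of their standard counterparts, and that of Psmb10 did not. Psmb7 had a mean of 610 FPKM over the 6 libraries, against 65.6 for Psmb5 and 73.8 for Psmb6. Whether FPKM compare between these genes was not tested. The sign of the Psmb10 ratio turned without Con_253 (0.02) and without cKO_265 (0.20). Tap1 relative to Tap2 was 1.22, 1.35 and 1.36 against 1.33, 1.61 and 1.68 (0.23, exact permutation p = 0.3, adjusted 0.48). Psmb9 relative to Tap1, the pair with the shared promoter, was 1.63, 1.46 and 1.53 against 1.87, 1.62 and 2.10 (0.27, exact permutation p = 0.2, adjusted 0.4). Light chain and activator were each set against a partner. B2m relative to the summed heavy chains H2-K1 and H2-D1 was 0.182, 0.196 and 0.304 against 0.170, 0.208 and 0.458 (0.19, exact permutation p = 0.8, adjusted 0.8), and the difference was -0.23 without cKO_265. Nlrc5 relative to Ciita, the class II transactivator of the same family, was 1.13, 1.07 and 1.09 against 1.11, 1.34 and 1.97 (0.38, exact permutation p = 0.2, adjusted 0.4), and 0.15 without cKO_265.

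**Figure D3:**
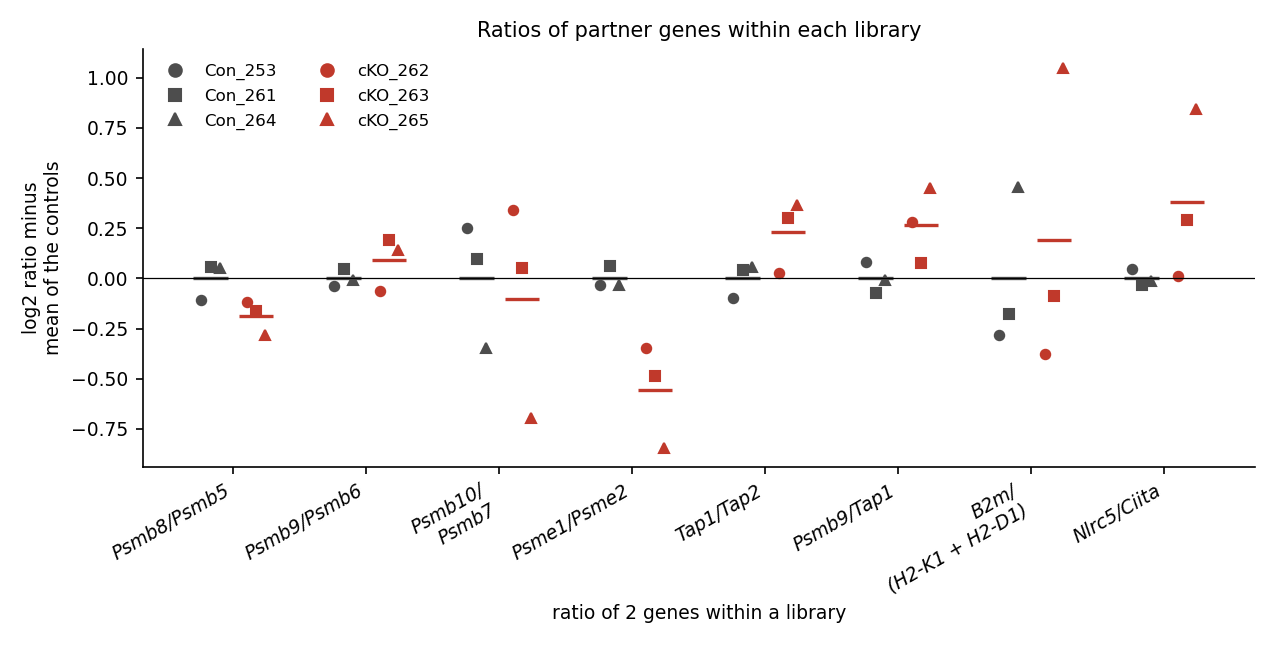
Log2 ratio of FPKM of 2 genes within a library, minus the mean of the controls, for the 8 pairs; points are libraries and horizontal bars the group means. The groups are separate for Psmb8/Psmb5 and Psme1/Psme2, both lower in the deficient libraries, and overlap in the other 6.

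Tap1, Psme2 and Tapbp each had 2 rows in the tables, which do not say which transcript or start a row stands for. The rows of Tap1 had fold changes of opposite sign. The first had 12.6, 10.7 and 4.58 FPKM in control libraries and 20.6, 46.7 and 52.5 FPKM in the deficient libraries (log2 fold change 1.98, SE 0.45, limma adjusted p = 0.210 over 17764 rows). The groups do not overlap. The second had 82.1, 78.7 and 71.8 FPKM against 87.3, 59.04 and 39.6 FPKM (-0.39, limma adjusted p = 0.588), with cKO_263 and cKO_265 below every control and cKO_262 above. The first row thus held 13.3%, 12.01% and 5.99% of Tap1 in the controls and 19.1%, 44.2% and 57.0% in the deficient libraries. The change of the log2 difference between the rows was 2.37 (SE 0.71, unadjusted p = 0.0148, limma adjusted p = 0.548 over 1120 genes with 2 rows), and 1.84 to 3.06 with any 1 library left out. Of those genes 7.95% had an unadjusted p under 0.05 and 0% passed after adjustment. Single rows are estimates from shared reads, and this reading was added after the values were seen.

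The rows of Psme2 and of Tapbp had fold changes of the same sign. The more abundant row of Psme2 had 229, 204 and 204 FPKM in control libraries and 295, 405 and 524 FPKM in the deficient libraries (0.90, limma adjusted p = 0.217). Its other row had a log2 fold change of 0.65 (limma adjusted p = 0.511). The rows of Tapbp had 0.31 and 0.27. Of all rows, 0.0507% passed, and none of these 6 did.

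**Figure D4:**
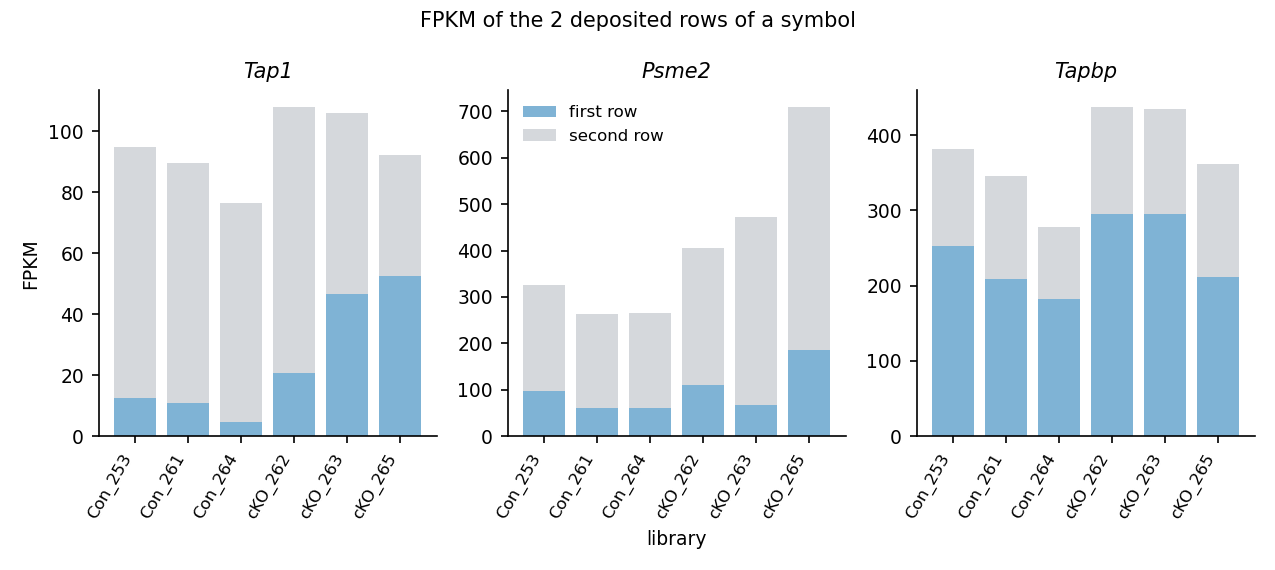
FPKM of the 2 rows of Tap1, Psme2 and Tapbp in each library, as stacked bars from 0; blue is the first row, grey the second, and the height of a bar is their sum. The first Tap1 row lies at 4.58 to 12.6 FPKM in control libraries and 20.6 to 52.5 FPKM in the deficient libraries, while the second is at 39.6 to 87.3 FPKM in the deficient libraries.

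Other genes of the pathway were read from 8 lists, and none of their tested genes passed the adjusted threshold. At an unadjusted limma p under 0.05, 6.81% of all tested genes were higher and 7.82% lower. Among the 2128 abundant genes these shares were 25.0% and 4.46%. The counts given for the 8 lists stand beside these shares, and the lists were not matched for abundance. All 4 constitutive or thymic catalytic subunits had positive log2 fold changes (median 0.36), and 2 were higher at an unadjusted p under 0.05. Psmb7 had 514, 427 and 454 FPKM in control libraries and 615, 764 and 887 FPKM in the deficient libraries, without overlap (0.69, SE 0.17, limma adjusted p = 0.155, and 0.32 after quantile normalization). Psmb6 had 0.41 and Psmb5 0.32. Psmb11, the cortical beta5t subunit, was at 4.11 ± 1.04 FPKM in control libraries and 4.53 ± 0.592 FPKM in the deficient libraries (SD, n = 3 each). Of 19 genes for the proteasome core, other caps and assembly, 8 were higher and 0 lower at an unadjusted p under 0.05 (median 0.11, and 0.14 to 0.27 with any 1 library left out: 0.27 without Con_253, 0.24 without cKO_265, 0.18 without Con_261 and 0.18 without cKO_262), among them the assembly factors Pomp (0.41) and Psmg4 (0.61) and the core subunit Psma6 (0.41).

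Of 23 tested class I heavy chain genes, classical and class I-like, 0 were higher and 3 lower at an unadjusted p under 0.05, with a median of -0.16 (-0.0812 without Con_261 and -0.10 without cKO_262). The 3 were H2-M10.1 (-0.82), H2-M1 (-0.76) and Hfe (-0.45), with means below 10 FPKM in both groups. The abundant classical chains had positive values. H2-K1 had 6252, 6445 and 5640.4 FPKM in control libraries and 7696, 7138 and 6687 FPKM in the deficient libraries, and H2-D1 had 2025, 1837 and 1777 FPKM against 2229.8, 2205 and 2157 FPKM. Both were higher without overlap, each by 0.23 (limma adjusted p = 0.572 and 0.513), but lower after quantile normalization (-0.47 and -0.18). Of 17 other loading factors 2 were higher and 0 lower at an unadjusted p under 0.05. Their median was 0.07, but 0.004 without Con_261, 0.0051 without Con_253, 0.019 without cKO_265 and 0.16 without Con_264, and -0.0161 after quantile normalization. These were Uggt1 (0.48), which tests the folding of glycoproteins, and the tapasin relative Tapbpl (0.33). The aminopeptidase Lnpep had -0.35.

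Of 28 regulators of class I transcription, 0 were higher and 3 lower at an unadjusted p under 0.05. Their median was -0.05, but -0.014 without cKO_265, -0.084 without Con_253 and -0.0979 without Con_264, and 0.026 after median centring. Irf7, a factor of the interferon response, had 70.1, 72.7 and 66.6 FPKM in control libraries and 46.2, 36.2 and 24.7 FPKM in the deficient libraries (-0.99, SE 0.21, limma adjusted p = 0.125). Its most abundant row alone gave -0.46 (limma adjusted p = 0.354). Irf2 had 16.1, 19.2 and 18.8 FPKM against 11.5, 9.72 and 11.03 FPKM (-0.69, SE 0.15, limma adjusted p = 0.125). Summed over rows, Irf7 and Irf2 were both lower without overlap. The NF-Y subunit Nfya had -1.11 (-0.63 without Con_253), with Con_253 at 38.8 FPKM and the other controls at 13.05 and 14.5 FPKM. Irf1 (-0.12), Rfx5 (-0.33) and Ciita (0.06) had limma adjusted p of 0.715, 0.441 and 0.901. The sign of Ciita turned without Con_264 (-0.01) or cKO_262 (-0.04).

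Of 16 genes for interferons, their receptors and signalling, 1 was higher and 0 lower at an unadjusted p under 0.05 (median -0.04, from -0.0881 without Con_264 to 0.0265 without Con_261, and above 0 also without Con_253, cKO_263 or cKO_265). This was Ifnb1, at 2.08 ± 0.121 and 3.82 ± 1.15 FPKM (SD, n = 3 each; 0.62). Ifnar2 had 0.31 and Usp18, which dampens signalling, 0.26. Of 30 interferon-induced genes outside class I, 2 were higher and 5 lower. Their median was -0.04, but -0.17 without cKO_265, -0.0706 without Con_253, 0.0768 without Con_264 and 0.0855 without cKO_262. Mx2 was near 0 in the controls (0.00640, 0.0181 and 0.00673 FPKM) and at 7.19, 1.86 and 11.2 FPKM in the deficient libraries (2.71, SE 0.45, limma adjusted p = 0.0986). It passed with a pseudocount of 0.1 (adjusted p = 0.0289), with arrayWeights (0.00646) and without cKO_263 (0.00493). Its relative Mx1 had -0.92 (limma adjusted p = 0.143) and the GTPase gene Igtp -0.40. Of 12 genes of MHC class II presentation 0 were higher and 1 lower, H2-Ob (-0.33), while H2-Oa had 0.38 and Ifi30 0.34 (0.11 and 0.0744 after quantile normalization). The median of the 12 was -0.05, but -0.35 after quantile normalization, -0.14 without cKO_262, 0.0207 without cKO_265 and 0.0084 without Con_253.

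**Figure D5:**
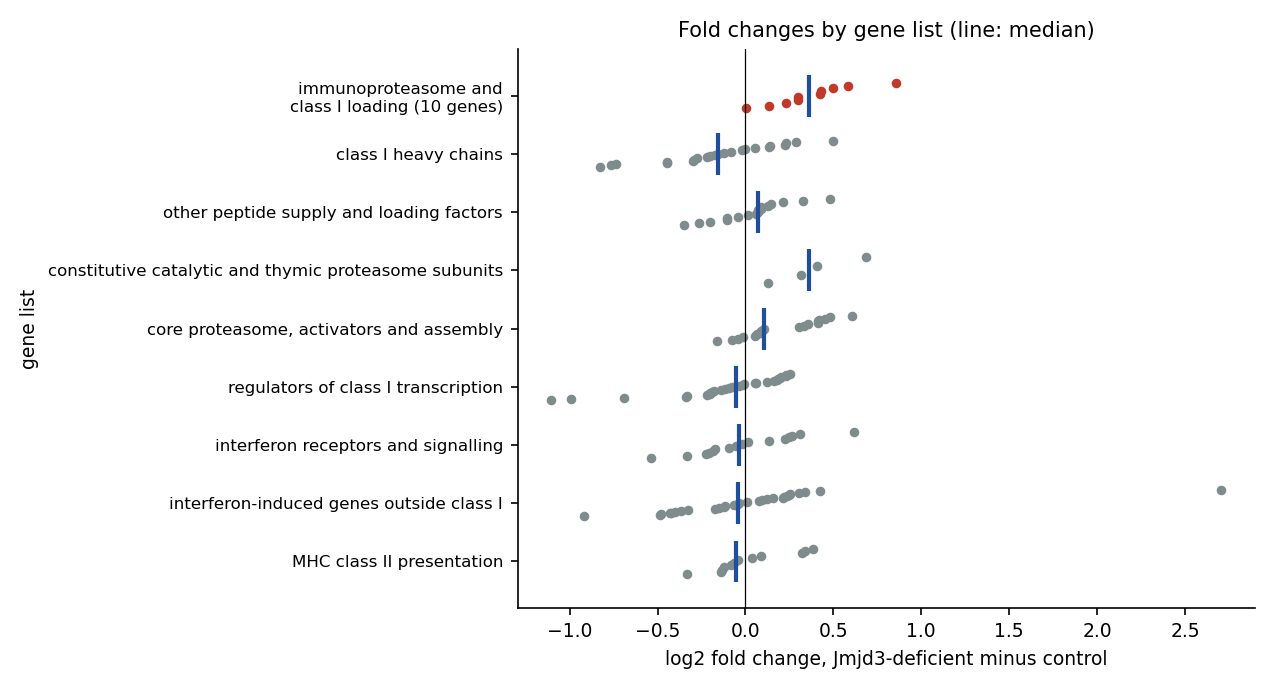
Log2 fold change (deficient minus control) of each tested gene in the 10 genes described and the 8 further lists; points are genes and the vertical bars list medians. The 10 genes and the standard catalytic subunits both have a median of 0.36, and the heavy chains -0.16.

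The genes whose profile over the 6 libraries was most like the mean profile of the 10, among 8922 genes whose mean reached 5 FPKM, were Chd3, Phb and Bst2. Their root mean square differences from it on the centred log2 scale were 0.028, 0.0352 and 0.0352. Bst2, which encodes tetherin, had 43.5, 37.9 and 34.8 FPKM in control libraries and 52.4, 49.7 and 54.1 FPKM in the deficient libraries. Chd3 encodes a chromatin remodeller and Phb a prohibitin of the mitochondrial membrane.

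In bulk samples, fewer cells of a type and less RNA per cell cannot be told apart, and most of the 10 genes are also expressed by immune and stromal cells. Several mTEC markers were abundant, for example Epcam at 751 to 945 FPKM, Aire at 230.3 to 504 FPKM and Fezf2 at 187 to 240.0 FPKM over the 6 libraries. Lower values were found for Cldn3 (11.7 to 40.9 FPKM), Tnfrsf11a (26.0 to 34.0 FPKM) and Cd80 (49.0 to 69.0 FPKM). Of 11 tested mTEC markers 8 had positive and 3 negative log2 fold changes, and Cd40 was higher without overlap (means of 142 and 191 FPKM). Summed FPKM of 11 of 12 mTEC markers was 3993 to 4677 in the controls and 4475 to 5209 in the deficient libraries. Of cortical epithelial markers (8 of 8) it was 634 to 885 and 863 to 1268, with cKO_265 highest. Most of this sum came from Tbata (means of 394 and 589 FPKM) and Ccl25 (282 and 360 FPKM). Cxcl12 (9.33 and 6.99 FPKM) and Dll4 (6.76 and 5.03 FPKM) were lower without overlap. Of the 8 cortical markers, 5 had positive and 3 negative log2 fold changes. Thymocyte markers (20 of 20) summed to 122 to 171 in the controls and 110.1 to 119 in the deficient libraries. Fibroblast markers (8 of 8) summed to 50.3 to 56.2 and 44.0 to 50.1. Both sums were lower without overlap, although narrowly. Of 17 tested thymocyte markers 14 had negative and 3 positive log2 fold changes. Among them 5 were lower without overlap, Bcl11b was higher without overlap, and the groups overlapped for Tcf7, the most abundant. Of 7 tested fibroblast markers 4 had negative and 3 positive values, and the groups overlapped for each. Markers of dendritic cells, macrophages and B cells (16 of 17) summed to 425 to 480.5 and 378 to 451, and endothelial markers (9 of 9) to 18.2 to 25.4 and 15.0 to 23.95. Among 7 tested endothelial markers, 5 had negative and 2 positive log2 fold changes. Pecam1 (means of 2.34 and 1.28 FPKM), Cdh5 (2.35 and 1.74 FPKM) and Tek (1.26 and 0.811 FPKM) were lower without overlap. The groups overlapped for Esam, the most abundant (10.7 and 12.4 FPKM). No marker found was at 0 in all libraries. The groups overlapped in the sum for dendritic cells, macrophages and B cells, and most of it came from Lyz2. Lyz2 had 324 to 362 FPKM in control libraries and 242 to 275 FPKM in the deficient libraries. Of 13 tested markers of this list 9 had negative and 4 positive log2 fold changes. The positive ones were Cd79b, Flt3, Aif1 (4.29 ± 0.440 and 13.7 ± 3.16 FPKM, SD, n = 3 each) and Fcer1g (19.1 ± 4.93 and 46.9 ± 28.5 FPKM). Aif1 and Fcer1g were higher without overlap. The part of these cells in the values of the 10 genes was not tested.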

How the data were processed

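Transcriptomes of sorted mTECs were measured in 3 control and 3 Jmjd3-deficient libraries. Per the labels' protocols, cDNA from column-purified RNA went through a single-cell kit for whole-transcriptome amplification, a step that can shift the proportions of transcripts. For each library the authors deposited FPKM values, made with Bowtie2 2.2.5 and Cufflinks on mm10 per the submitters' processing notes. The annotation, strand setting and library scaling are not given in the sources used here, and the file headers do not name the unit, which rests on the tool. Of 25025 rows per table, 44 with symbols turned into dates were left out, and rows of a symbol were summed. Genes whose mean reached 0.5 FPKM entered limma 3.58.1 as log2(FPKM + 1) (R 4.3.3; lmFit, eBayes with trend), 2-sided, with Benjamini-Hochberg adjustment over 15720 genes and a threshold of 0.05. The test was checked on simulated data with even noise, no discordant library and larger changes than the 10 genes had. The check therefore does not cover fold changes like theirs. Ratios were compared by exact permutation (SciPy 1.17.1) and adjusted over 8. Genes named were the 10 members, fixed partner genes and regulators whatever their values, the 3 smallest p-values of each further list, and the 3 most similar profiles; marker genes, and the library-wide Y-linked genes, were named after their values were seen. One gene that the rule names is not reported here. The members and lists were chosen with earlier results of these data known. Alternatives were a pseudocount of 0.1, other filters, quantile normalization, median centring, arrayWeights, single rows, and libraries left out; the fits of single rows, the balance of 2 rows and the abundance-limited background were chosen after seeing the data.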

Additional observations from a re-analysis of the deposited data

How the results depend on the processing

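No paired analysis was possible because the groups share no replicate numbers. The number of genes that passed (12) was 3025 with arrayWeights and 2 to 23 with any 1 library left out: 2 without any 1 control, 23 without cKO_262 and 19 without cKO_265. Of the 10 genes described 4 passed with arrayWeights, and 0 in the other 13 alternatives, with any 1 library left out included; the smallest adjusted p there was 0.0846. Of 140 alternative fold changes of these genes, 8 changed sign. Quantile normalization gave -0.10 for Psmb8, -0.12 for Tap2, -0.0028 for Tapbp and -0.0636 for B2m, and, outside the 10, -0.47 for H2-K1 and -0.18 for H2-D1. Tap2 was -0.11 without Con_264 and -0.14 without cKO_262, within a range of -0.14 to 0.138 with any 1 library left out, and Ciita was -0.0141 and -0.0396, within -0.0396 to 0.171. The more abundant Tap1 row alone gave -0.39. B2m was -0.0759 without both Con_253 and cKO_265. Without both, the log2 ratio of Psmb10 to Psmb7 was 0.32 and that of B2m to its heavy chains -0.37. With any 1 library left out these ratios ranged from -0.32 to 0.20 and from -0.23 to 0.48, Psme1/Psme2 from -0.66 to -0.42 Psmb8/Psmb5 from -0.24 to -0.14, Psmb9/Psmb6 from 0.0387 to 0.17 and Nlrc5/Ciita from 0.15 to 0.57. The cause of these changes was not tested. Without counts, the precision that depth gives is unknown.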
